A study of Mus musculus with 4 samples.

Results

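The genes described are the G1 and S phase cyclins, their kinases and the phosphatase that activates them: *Ccnd1*, *Ccnd2*, *Ccnd3*, *Ccne1*, *Ccne2*, *Ccna2*, *Cdk4*, *Cdk6*, *Cdk2* and *Cdc25a*. They were chosen by name, with earlier results of these data known. All 10 were found among the 24454 genes of the count table and among the 14266 that held enough counts to test. RNA-seq was done on hearts of mice at postnatal day 7 (P7), in 2 control libraries (Ctrl, WH7 and WH8) and 2 libraries overexpressing *miR-128* (miR-128OE, WH9 and WH10). The miR-128OE mice carried α-MHC-tTA, a doxycycline-repressed activator driven by the cardiomyocyte α-MHC promoter, together with miR-128TetRE, a *miR-128* responder placed in *Rosa26*. The Ctrl mice carried miR-128TetRE without the activator, so the responder was common to all 4 libraries and the activator protein itself was present in miR-128OE alone. The comparison asks which cell cycle genes differ in P7 hearts when cardiomyocytes express extra *miR-128*. The sources used here do not say whether libraries came from separate animals, and p-values may then measure only the spread between these libraries, which may be technical. Whether these mice met doxycycline, which shuts the activator off, is not stated there either.

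In a cell that enters the cycle, mitogens raise the D-type cyclins, which bind CDK4 or CDK6 and begin to phosphorylate the retinoblastoma protein. This frees E2F transcription factors, which switch on the E-type cyclins, cyclin A2, CDC25A and the DNA replication genes. E-type cyclins with CDK2 start S phase, cyclin A2 with CDK2 carries it through, and CDC25A removes the inhibitory phosphates from CDK2. Mouse cardiomyocytes leave the cycle in the first weeks after birth, and many of these genes decline in the heart over that time.

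Total counts ran from 8096870 in WH8 to 14359838 in WH10, and WH8 was the shallowest library. The libraries also differed by sex: the X-inactivating RNA *Xist* was counted 14543 and 11339 times in Ctrl against 94 and 132, whereas Y-linked *Ddx3y* was counted 13 and 7 times in Ctrl against 1442 and 1768. Sex and overexpression therefore cannot be told apart in any difference below. All 10 genes lie on autosomes, which does not remove this limit. Heart muscle markers were high in every library: the 6 used here summed to 39620 and 41730 CPM (counts scaled to the same library total) in Ctrl and to 53542 and 52462 in miR-128OE. In bulk heart RNA, fewer cells of a type and less RNA per cell cannot be told apart.

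Of the 10 genes, 5 fell in miR-128OE hearts (*Ccnd1*, *Ccne2*, *Ccna2*, *Cdk6* and *Cdk2*), 0 rose, and 5 did not pass the test at an adjusted p of 0.05 (edgeR quasi-likelihood test, Benjamini-Hochberg over all 14266 genes). The 5 that fell were 1 of 3 D-type cyclins, 1 of 2 E-type cyclins, cyclin A2 and 2 of 3 kinases, so the D-type cyclins, the E-type cyclins and the kinases each held genes that passed and genes that did not. Over all genes tested, 15.0% were called lower and 16.5% higher. At an unadjusted p under 0.05, 1 member was higher, *Ccnd3*. DESeq2 called 3 members lower and 0 higher. Both miR-128OE libraries lay below both Ctrl libraries for 6 members, against 34.4% of all genes, and above both for 3, against 33.7%; only *Cdk4* overlapped. The median log2 fold change of the 10 was -0.28, beside -0.01 over all genes. Because the 10 were chosen with earlier results of these data known, setting them beside all genes describes the list and does not test it. With either miR-128OE library left out the count of lower members dropped to 0 (without WH9) or 1 (without WH10), while the count over all genes dropped from 2143 to 667 or 1020.

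**Figure D1:**
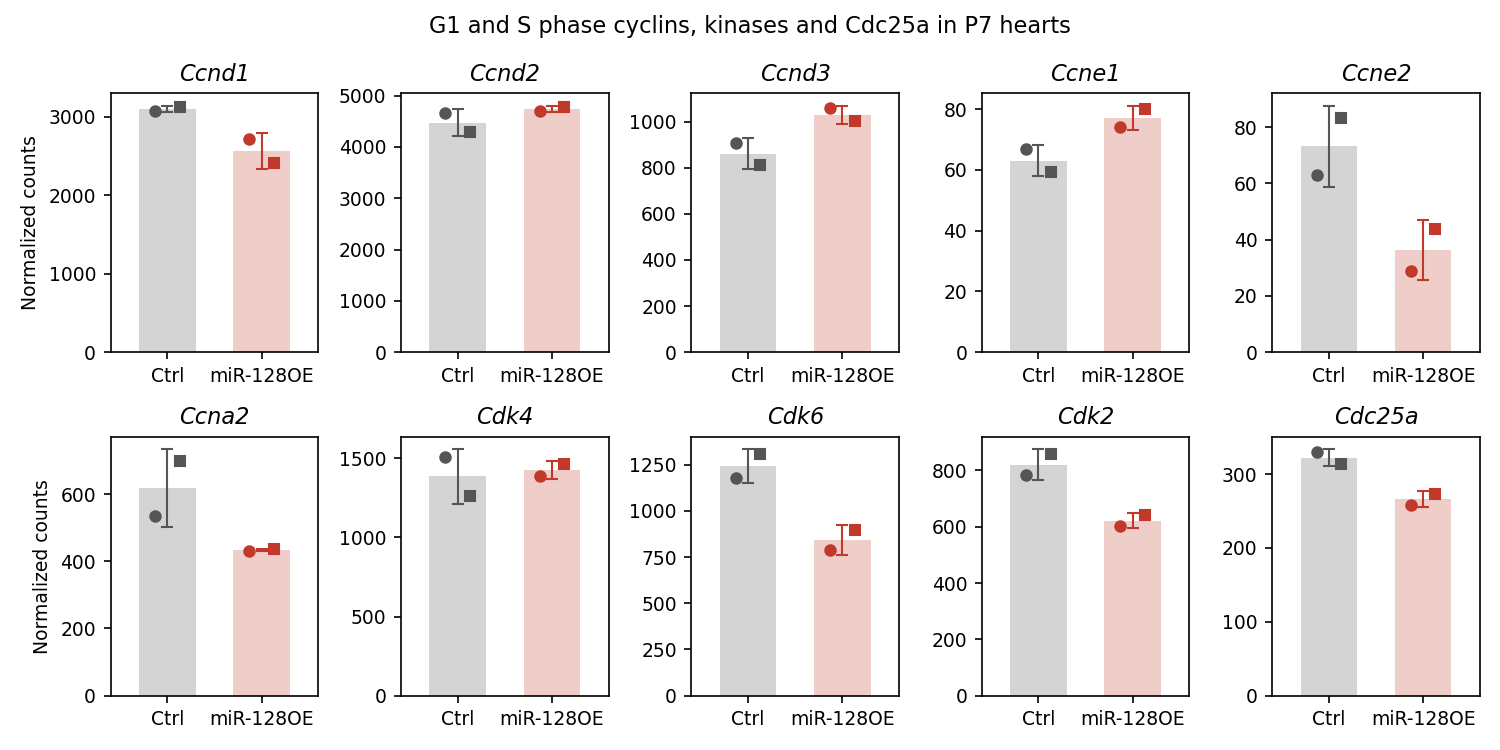
Normalized counts of the 10 genes in each library (points; circles WH7 and WH9, squares WH8 and WH10), with the group mean (bar) and SD (line, n = 2), on an axis from 0. *Ccne2*, *Ccna2*, *Cdk6*, *Cdk2*, *Ccnd1* and *Cdc25a* lie below both Ctrl libraries in both miR-128OE libraries, and *Cdk4* overlaps between the groups.

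Among the D-type cyclins, *Ccnd1* encodes cyclin D1, the member most often named as the mitogen sensor. Its normalized counts, that is, counts scaled to a common library size, were 3065 and 3125 in Ctrl and 2720 and 2404 in miR-128OE. The groups did not overlap, and the miR-128OE libraries were further apart from each other than the Ctrl libraries. Cyclin D1 RNA fell to 0.828 of Ctrl (log2 fold change -0.27, SE 0.086, 95% confidence interval -0.47 to -0.08, adjusted p = 0.0369 by edgeR). This was the smallest of the 5 called falls, and it did not pass with DESeq2 (adjusted p = 0.0615) or after a correction for GC content and length (0.0819), nor without WH9 (0.103) or WH10 (0.386). *Ccnd1* shares 1100 bases of exon with *LTO1* on the opposite strand, and strand use in the counting was not given in the sources used here.

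*Ccnd2* encodes cyclin D2, whose forced expression is known to keep mouse cardiomyocytes in cycle. It had 4665 and 4288 normalized counts in Ctrl and 4707 and 4786 in miR-128OE. The values were close, and the test did not separate the groups (log2 fold change 0.08, 95% confidence interval -0.10 to 0.27, adjusted p = 0.473 by edgeR). *Ccnd2* shares 368 bases of exon with *9330179D12Rik* on the opposite strand. The interval excludes a fall of the size seen for *Cdk6* or *Cdk2*.

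*Ccnd3* encodes cyclin D3, the D-type cyclin associated with differentiating tissues such as muscle. Its fold change had the opposite sign, with 908 and 813 normalized counts in Ctrl and 1057 and 1002 in miR-128OE. Both miR-128OE libraries stood above both Ctrl libraries, but the difference missed the threshold (1.19 of Ctrl, log2 fold change 0.25, SE 0.089, 95% confidence interval 0.06 to 0.45, adjusted p = 0.0545 by edgeR). It passed in 3 of 13 alternatives: with no filter on low counts (adjusted p = 0.0283), with the GC and length correction (0.0427) and without WH7 (0.0115). *Ccnd3* shares 361 bases of exon with *Bysl* on the opposite strand.

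The mix of D-type cyclin RNA was read from the same counts. Per length of exon, *Ccnd1* made up 52.1% and 54.8% of the D-type cyclin RNA in Ctrl and 48.2% and 45.0% in miR-128OE. The share of *Ccnd2* was 39.7% and 37.6% against 41.7% and 44.9%, and that of *Ccnd3* 8.28% and 7.64% against 10.1% and 10.1%. A share within a library does not depend on how libraries are scaled, and all 3 shares separated the groups. The shares of a family add up to the whole, so they restate the counts of its genes and are not 3 separate results. Separation was common: of all genes tested, 34.4% lay below and 33.7% above Ctrl in both miR-128OE libraries. The exact two-sided permutation p was 0.333 for each share, the smallest that 2 against 2 libraries can give. The summed D-type level was 106 and 103 CPM per kilobase in Ctrl and 102 and 96.3 in miR-128OE, or 0.947 of Ctrl (exact permutation p = 0.333).

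Of the kinase partners of the D-type cyclins, *Cdk6* fell and *Cdk4* did not pass. *Cdk4* was the more abundant of the pair and showed no detectable difference: 1506 and 1264 normalized counts in Ctrl, 1385 and 1463 in miR-128OE. Both miR-128OE values lay inside the Ctrl range (log2 fold change 0.04, 95% confidence interval -0.18 to 0.26, adjusted p = 0.801 by edgeR), and the sign of this small difference changed with the scaling of the libraries. *Cdk4* shares 641 bases of exon with *Tspan31* on the opposite strand.

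*Cdk6* had 1180 and 1307 normalized counts in Ctrl and 787 and 899 in miR-128OE. All 4 libraries were well covered, with 795 to 1290 counts as deposited, and the groups were clearly apart. *Cdk6* fell to 0.680 of Ctrl (log2 fold change -0.56, SE 0.096, 95% confidence interval -0.77 to -0.34, adjusted p = 0.00259 by edgeR), and it had the smallest p of the 10 genes. The fall passed in 12 of 13 alternatives and missed without WH9 (-0.45, adjusted p = 0.0587). *Cdk6* shares exon with no other gene of the count table.

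*Cdk6* was also the only member whose longest annotated 3′UTR held a 7-base match to the *miR-128* seed, so its sites are shown with the microRNA. The mature sequence is from RefSeq (GRCm38.p6), encoded by *Mir128-1* at chr1:128202404-128202424, plus strand, and *Mir128-2* at chr9:112118644-112118664, minus strand, with the seed (bases 2 to 8) in capitals. The 2 sites are from GENCODE transcripts of GRCm38, plus strand, with the bases complementary to the seed in capitals.
miR-128-3p: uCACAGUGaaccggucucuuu
Cdk6 site at chr5:3524734-3524756: gccatcgtCACTGTGggagttaa
Cdk6 site at chr5:3530140-3530162: tcaaaaagCACTGTGggaaatca
Both matched all 7 seed bases and were followed by g, so neither was an 8-base match with A opposite the first base. They began at bases 3951 and 9357 of a 3′UTR of 10217 bases, beside a median of 1199 bases over the tested genes with an annotated 3′UTR. A match of 7 or 8 bases occurred in 31.0% of those 13493 genes and 2 or more in 9.09%. Longer 3′UTRs hold more matches by their length alone, and whether *miR-128* binds at either place was not measured.

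The other members that fell had no such match. *Ccne2* held 3 matches of 6 bases, one of which is tgtttgttACTGTGtttcttta at chr4:11203420-11203441 on the plus strand with the 6 bases in capitals, and *Ccnd1*, *Ccna2* and *Cdk2* held none of 6 bases or more. Of the members that did not pass, *Ccnd2* and *Cdc25a* each held 1 match of 6 bases. In all, 1 of 10 members had a match of 7 or 8 bases, and 4 of 10 had one of 6 or more, against 47.1% of the tested genes. Taking every annotated protein-coding 3′UTR in place of the longest gave 2 members, *Cdk6* and *Cdc25a*, against 32.7%.

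*Cdk2*, the partner of the E-type cyclins and cyclin A2, had 783 and 859 normalized counts in Ctrl and 602 and 640 in miR-128OE. The replicates of each group were close and the groups did not overlap. *Cdk2* fell to 0.758 of Ctrl (log2 fold change -0.40, SE 0.091, 95% confidence interval -0.60 to -0.19, adjusted p = 0.00991 by edgeR). It passed in 11 of 13 alternatives and missed without WH9 (adjusted p = 0.134) or WH10 (0.0642). *Cdk2* shares 34 bases of exon with *Pmel* on the opposite strand.

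Among the 3 kinases, the share of *Cdk4* was 68.8% and 62.7% in Ctrl and 73.6% and 72.9% in miR-128OE, per length of exon. *Cdk6* made up 12.5% and 15.1% in Ctrl against 9.71% and 10.4%, and *Cdk2* 18.7% and 22.3% against 16.7% and 16.7%. All 3 shares were apart between groups, each with an exact two-sided permutation p of 0.333, the smallest possible. The shares add up to the whole, so that of *Cdk4* was higher where *Cdk6* and *Cdk2* were lower, without a detected change of *Cdk4* itself. Per length of exon *Cdk4* outweighed *Cdk6*, and the sum of both kinases overlapped between the groups. That sum was 46.5 and 41.0 CPM per kilobase in Ctrl and 41.0 and 43.7 in miR-128OE. Without length the 2 genes were closer, so the overlap holds per length only. Mean normalized counts were 1385 for *Cdk4* and 1244 for *Cdk6* in Ctrl, and 1424 and 843 in miR-128OE.

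**Figure D2:**
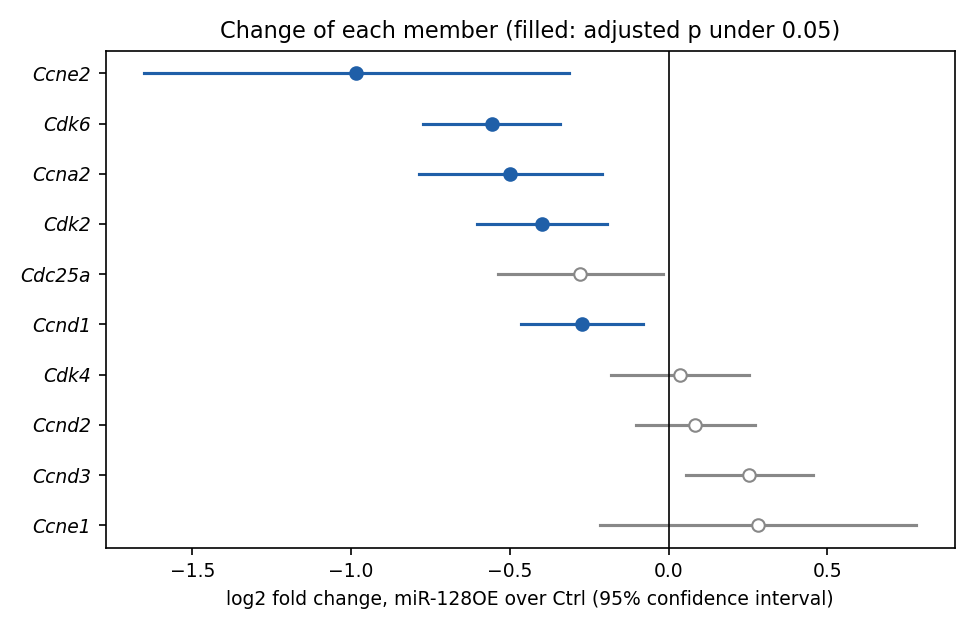
log2 fold change of each gene in miR-128OE over Ctrl (points) with its 95% confidence interval (lines), ordered by size. Filled blue points passed an adjusted p of 0.05 (edgeR), from -0.98 for *Ccne2* to -0.27 for *Ccnd1*; open grey points did not.

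The E-type cyclins had fold changes of opposite sign. *Ccne2*, cyclin E2, had the largest fold change of the 10 and among the lowest counts, with 69 and 59 counts as deposited in Ctrl and 29 and 52 in miR-128OE. Its normalized counts were 63.1 and 83.4 in Ctrl and 28.7 and 43.7 in miR-128OE. The groups were apart, but the libraries within each group differed by more than those of the abundant members. *Ccne2* fell to 0.506 of Ctrl (log2 fold change -0.98, SE 0.30, 95% confidence interval -1.65 to -0.31, adjusted p = 0.0322 by edgeR). The interval runs from 0.318 to 0.804 of Ctrl. The fall missed the threshold with DESeq2 (adjusted p = 0.0919), without WH8 (0.0939), without WH9 (0.228) and without WH10 (0.0504). *Ccne2* shares 609 bases of exon with *Ints8* on the opposite strand.

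*Ccne1*, cyclin E1, had 66.8 and 59.4 normalized counts in Ctrl and 74.3 and 79.9 in miR-128OE. Both miR-128OE libraries were the higher, and the difference did not pass (log2 fold change 0.28, SE 0.22, 95% confidence interval -0.22 to 0.78, adjusted p = 0.363 by edgeR). At this depth a rise to 1.72 or a fall to 0.861 of Ctrl both lie within the interval.

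Of the 3 family mixes, that of the E-type cyclins differed by the most percentage points. *Ccne1* made up 58.1% and 48.3% of E-type cyclin RNA per length in Ctrl and 77.2% and 70.6% in miR-128OE, a difference of 20.7 percentage points between means. The 2 genes were about even in Ctrl, and *Ccne1* was the major one in both miR-128OE libraries (exact two-sided permutation p = 0.333, the smallest possible). Their sum was 3.66 and 3.92 CPM per kilobase in Ctrl and 3.07 and 3.61 in miR-128OE, so the total differed less than either gene did.

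*Ccna2*, cyclin A2, is made in S and G2 phase and is silenced in the heart after birth. It had 536 and 700 normalized counts in Ctrl and 432 and 437 in miR-128OE. The miR-128OE libraries were nearly equal, whereas WH8 stood well above WH7. *Ccna2* fell to 0.708 of Ctrl (log2 fold change -0.50, SE 0.13, 95% confidence interval -0.79 to -0.21, adjusted p = 0.0165 by edgeR). Leaving out the higher Ctrl library, WH8, reduced the log2 fold change to -0.30, still past the threshold, and leaving out WH9 or WH10 gave adjusted p = 0.114 or 0.0924. *Ccna2* shares 510 bases of exon with *Exosc9* on the opposite strand.

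*Cdc25a*, the phosphatase, had 330 and 314 normalized counts in Ctrl and 258 and 273 in miR-128OE. Replicates were close and the groups did not overlap, and the size of the difference, 0.825 of Ctrl, was close to that of *Ccnd1*. It did not pass (log2 fold change -0.28, SE 0.12, 95% confidence interval -0.54 to -0.02, adjusted p = 0.0964 by edgeR), except when libraries were scaled by total counts (adjusted p = 0.0364).

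**Figure D3:**
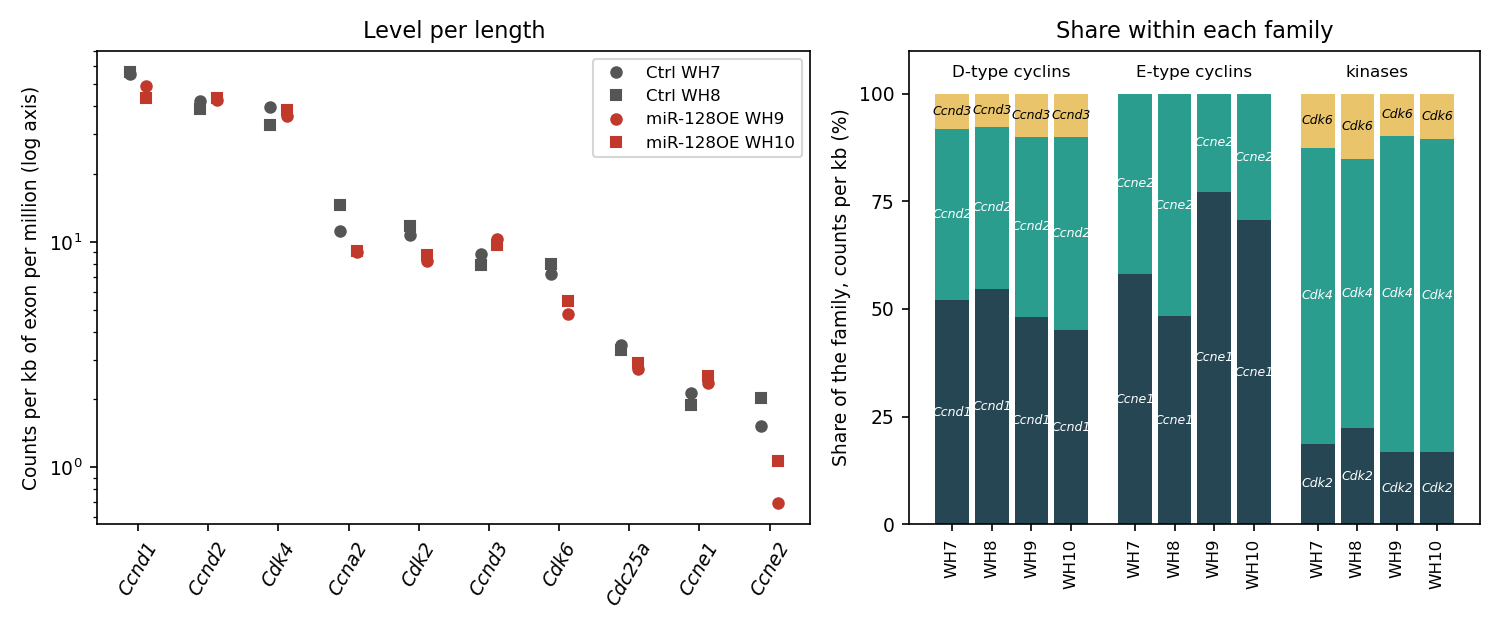
Left, CPM per kilobase of exon in each library (log axis), genes in the order of their Ctrl mean. Right, share of each gene within its family per library; *Ccne1* passes 70% of E-type RNA in both miR-128OE libraries.

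Per length of exon, the members covered a wide range in Ctrl hearts. *Ccnd1* led with 55.3 and 56.4 CPM per kilobase, followed by *Ccnd2* (42.1 and 38.7) and *Cdk4* (39.4 and 33.0). *Ccna2* (11.1 and 14.6), *Cdk2* (10.7 and 11.7), *Ccnd3* (8.79 and 7.87) and *Cdk6* (7.16 and 7.94) formed a middle group. *Cdc25a* (3.50 and 3.32), *Ccne1* (2.13 and 1.89) and *Ccne2* (1.53 and 2.03) were lowest. Neighbours in this order whose Ctrl values overlapped were *Ccnd2* and *Cdk4*, *Ccna2* and *Cdk2*, *Ccnd3* and *Cdk6*, and *Ccne1* and *Ccne2*.

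In miR-128OE hearts *Ccnd1*, at 49.1 and 43.4 CPM per kilobase, came close to *Ccnd2*, at 42.5 and 43.2. *Ccnd3*, at 10.2 and 9.70, moved from rank 6 to rank 4, above *Ccna2* (8.98 and 9.08) and *Cdk2* (8.22 and 8.74). *Cdk6* was at 4.78 and 5.46 and *Ccne2* at 0.698 and 1.06. The lengths are the merged exons of all annotated transcripts, and with the length of the longest transcript *Ccna2*, *Cdk2* and *Ccnd3* took other ranks in Ctrl.

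Promoter sequence was at hand for *Cdk6*, *Ccne1*, *Cdc25a*, *Cdk4*, *Cdk2* and *Ccnd3*, as 7 RefSeq windows (GRCm38.p6) from 250 bases before to 50 bases after a start site. Since E2F factors drive several of these genes, the windows were searched on both strands for the E2F motif spelled TTTGGCGC, TTTCGCGC or TTTCCCGC. These motifs were found in the windows of *Cdc25a* and *Cdk2*, and in 1.84% of 32851 mouse promoter windows of the same length. The stretches around them are shown with the motif in capitals.
Cdc25a, chr9:109875486-109875545, plus strand: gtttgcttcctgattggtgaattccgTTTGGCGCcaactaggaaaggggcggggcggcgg
Cdk2, chr10:128705158-128705217, minus strand: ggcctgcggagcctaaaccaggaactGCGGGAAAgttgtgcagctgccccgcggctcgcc
The *Cdc25a* motif began 67 bases before the start site. That of *Cdk2* lay 140 bases before it and reads TTTCCCGC on the other strand. The cell cycle homology element, spelled TTTGAA or TTCGAA, occurred in 0 of the 7 windows and in 19.2% of all. A match describes the letters of a window and was not measured as a bound site. Only the exact spellings given were searched, so a window without a match may still hold a site in another spelling. For *Ccnd1*, *Ccnd2*, *Ccne2* and *Ccna2* no window was at hand.

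Other genes of the pathway were read from lists in the order of the cycle. Over all genes tested, 15.0% were called lower and 16.5% higher, and each list count below is to be read beside these shares. The E2F target genes of S phase, most of them parts of the replication machinery or of nucleotide synthesis, fell in 7 of 13 (*Mcm5*, *Mcm6*, *Mcm7*, *Cdt1*, *Rrm1*, *Tyms* and *Tk1*) and rose in 0 (0 also at an unadjusted p under 0.05 and with DESeq2), with a median log2 fold change of -0.39. *Mcm6*, a subunit of the replicative helicase, had 709 and 669 normalized counts in Ctrl and 351 and 339 in miR-128OE (log2 fold change -0.999, adjusted p = 0.000150 by edgeR). *Tyms*, thymidylate synthase, had 296 and 342 against 191 and 187 (log2 fold change -0.75, adjusted p = 0.00265 by edgeR). *Tk1*, thymidine kinase, fell by 0.63 and *Mcm7* by 0.44 on the log2 scale. Over all genes, both miR-128OE libraries lay below both Ctrl libraries for 34.4%, and here for 11 of the 13 genes. Without WH9 or WH10, 3 or 2 of them passed.

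The E2F and pocket protein genes code for the factors between the cyclins and these targets. Of 13, 1 fell (*E2f2*) and 1 rose (*E2f3*), with a median of -0.15. Each was 7.69% of the list, below the 15.0% and 16.5% called over all genes. *E2f2* had 143 and 139 normalized counts in Ctrl and 91.1 and 84.1 in miR-128OE (log2 fold change -0.69, adjusted p = 0.0157 by edgeR). *E2f3* had 274 and 250 against 372 and 351 (log2 fold change 0.46, adjusted p = 0.0159 by edgeR). *E2f2* and *E2f3* moved in opposite directions, and counts per gene do not tell forms of 1 gene apart. *E2f7* (log2 fold change -0.46, adjusted p = 0.0783) and *Rbl2*, which encodes p130 (-0.30, adjusted p = 0.111), did not pass. DESeq2 called neither *E2f2* nor *E2f3*, and neither passed without WH9 or without WH10.

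The CDK inhibitors, which hold the cyclin-kinase pairs inactive, had 1 higher gene of 5 tested and 0 lower, with a median of 0.14. At an unadjusted p under 0.05 and with DESeq2, 0 were lower. *Cdkn1a*, which encodes p21, had 614 and 659 normalized counts in Ctrl and 843 and 858 in miR-128OE (log2 fold change 0.42, SE 0.086, adjusted p = 0.00603 by edgeR), and it missed the threshold without WH9 or WH10. *Cdkn2d* (p19, log2 fold change 0.31, adjusted p = 0.0913), *Cdkn1b* (p27, 0.14, adjusted p = 0.246) and *Cdkn1c* (p57, 0.03, adjusted p = 0.856) did not pass. *Cdkn2a* and *Cdkn2b* had too few counts to test.

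Among the kinases that activate or restrain CDKs, 2 of 7 fell (*Pkmyt1* and *Chek2*) and 0 rose (1, *Wee1*, at an unadjusted p under 0.05, and 0 with DESeq2), with a median of -0.20. *Pkmyt1*, which phosphorylates CDK1 to restrain it, had 198 and 219 normalized counts in Ctrl and 93.1 and 124 in miR-128OE (log2 fold change -0.93, adjusted p = 0.00424 by edgeR). *Chek2*, a DNA damage checkpoint kinase, fell by 0.71 on the log2 scale (adjusted p = 0.0114 by edgeR). *Wee1*, which restrains CDK1 and CDK2, had 0.31 (adjusted p = 0.0665), and *Cdk7*, the CDK-activating kinase, -0.20 (adjusted p = 0.141). *Pkmyt1* and *Chek2* restrain the cycle, and so does *Wee1*, whose fold change had the opposite sign.

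Of the genes for cyclin turnover, 3 of 11 fell (*Fbxw7*, *Ambra1* and *Btrc*) and 1 rose (*Skp1*), with a median of 0.04. *Ambra1*, the ubiquitin ligase receptor for D-type cyclins, had 778 and 907 normalized counts in Ctrl and 549 and 592 in miR-128OE (log2 fold change -0.56, adjusted p = 0.00339 by edgeR). *Fbxw7*, the receptor for cyclin E, fell by 0.28 (adjusted p = 0.0237) and *Btrc*, a receptor for CDC25A, by 0.84 (adjusted p = 0.000830) on the log2 scale. These receptors act on the protein products of the members, which were not measured. *Skp1*, the adaptor that FBXW7 and BTRC bind, rose by 0.36 on the log2 scale (adjusted p = 0.00942).

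The mitotic cyclins and kinases had 2 of 7 genes lower (*Ccnf* and *Cdc25b*) and 0 higher (0 also at an unadjusted p under 0.05 and with DESeq2), with a median of -0.31. *Ccnf*, a cyclin that works as a ubiquitin ligase receptor, had 132 and 192 normalized counts in Ctrl and 65.3 and 84.1 in miR-128OE (log2 fold change -1.09, adjusted p = 0.00733 by edgeR). *Cdc25b*, a phosphatase of mitotic entry, had -0.47 (adjusted p = 0.0456). *Plk1* (-0.23, adjusted p = 0.275) and *Ccnb1* (-0.31, adjusted p = 0.410) did not pass. The log2 fold changes of the 7 genes ran up to 0.17, so the list was not lower throughout. For *Ccnb1*, WH8 had 400.0 normalized counts and WH7 199, so the Ctrl libraries differed 2-fold, in the same direction as for *Ccna2*.

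Cyclins and CDKs with other roles, such as transcription and splicing, moved in both directions, with 6 of 24 lower and 5 higher and a median of -0.07. *Ccng1*, a target of p53, had 1858 and 1697 normalized counts in Ctrl and 3649 and 3321 in miR-128OE (log2 fold change 0.97, adjusted p = 0.000112 by edgeR). *Cdk11b* (-0.52), *Cdk10* (-0.68) and *Ccnl2* (-0.60), 2 of which act with splicing, fell. These falls were similar in size to those of *Cdk6*, *Ccna2* and *Cdk2*, and whether they share a cause was not tested. The genes called higher were *Cdk16*, *Ccng1*, *Ccni*, *Ccnk* and *Ccny*.

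**Figure D4:**
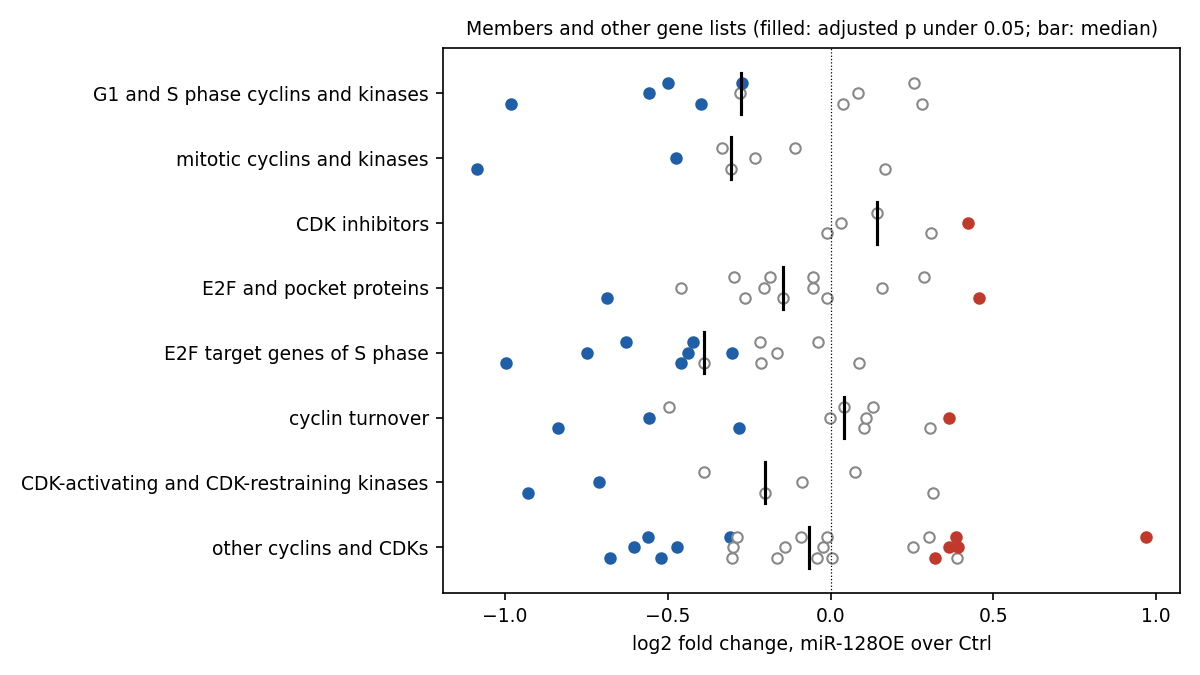
log2 fold change in miR-128OE over Ctrl of each tested gene (points) in the 10 members and 7 pathway lists, with the list median (black bar). Filled blue or red points passed an adjusted p of 0.05 (edgeR) as lower or higher. Blue are 7 of 13 E2F target genes and 5 of 10 members, against 15.0% of all genes.

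Summed marker levels of several cell types differed between the groups too, but a sum is led by its most abundant genes. The sum of cardiomyocyte markers was 1.30 of Ctrl (2 of 6 higher, 1 lower). Their log2 fold changes ran from -0.40 to 1.34, with a median of 0.23. Summed smooth muscle and pericyte markers were at 1845 and 1707 CPM in Ctrl and 2215 and 2526 in miR-128OE (2 of 6 higher, 1 lower). Their log2 fold changes ran from -0.64 to 0.94, with a median of 0.04. Brown fat markers were at 31.7 and 31.9 against 69.2 and 51.4, with 3 of 3 higher (median 1.14). Erythroid markers were at 44.7 and 32.1 against 78.5 and 71.5, with 1 of 3 higher (median 0.44). Schwann cell markers were at 36.2 and 38.5 against 23.5 and 24.6, with 1 of 3 higher and 1 lower (median -0.07). Endothelial markers were at 1402 and 1393 against 1584 and 1475, with 2 of 6 higher and 1 lower (median -0.04). Fibroblast markers (6476 and 4236 against 5219 and 5908; 0 of 6 called) and macrophage markers (101 and 76.8 against 83.2 and 82.7; 0 of 6) overlapped or were not called. Epicardial markers were at 106 in WH7 and 51.7 to 61.8 in the other libraries (0 of 4). At an unadjusted p under 0.05 by edgeR, 0 fibroblast and 0 macrophage markers passed, and 1 epicardial marker was lower and 1 higher. All of these defining markers were detected except *Hba-a1*, which had at most 3 counts in every library, and *Ahsp*, which was not matched. *Cdk6*, *Cdk2* and *Ccna2* are expressed by many of these cell types, and the part of cell makeup in their falls was not tested.

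The overexpression was hardly visible in these counts: *Mir128-1* was at 0 throughout, and *Mir128-2* was counted 0 and 0 times in Ctrl against 2 and 10 times in miR-128OE. Mature *miR-128* was not measured here.

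The 13 alternatives reused the same 4 libraries, in which both miR-128OE values lay below both Ctrl values for each gene that fell. Leaving out 1 library could therefore hardly turn a sign. The direction of the 5 falls was the same in all 13 alternatives for *Ccnd1*, *Ccne2*, *Ccna2*, *Cdk6* and *Cdk2*. Their log2 fold changes ranged from -0.37 to -0.17, from -1.32 to -0.71, from -0.69 to -0.30, from -0.66 to -0.38 and from -0.50 to -0.33, in that order. The count of alternatives in which each passed was 9, 9, 11, 12 and 11 of 13.

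**Figure D5:**
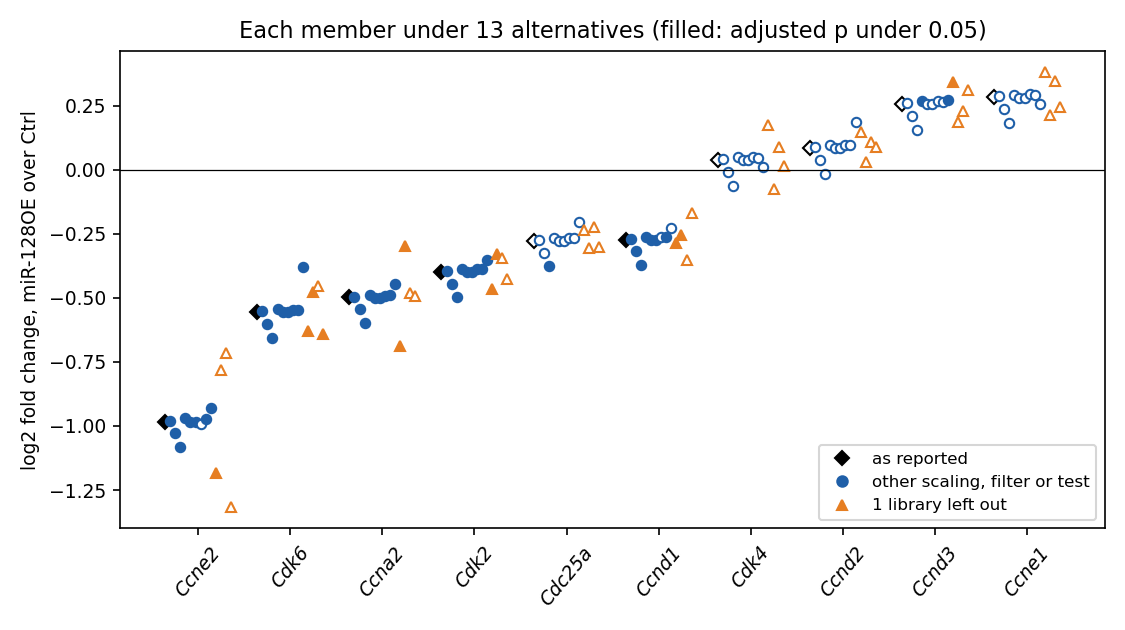
log2 fold change of each gene in miR-128OE over Ctrl as reported (black diamonds), under other scalings, filters or tests (blue circles) and with 1 library left out (orange triangles). Filled symbols passed an adjusted p of 0.05; *Cdk6* stays filled in 12 of 13 alternatives, whereas *Cdk4* and *Ccnd2* lie on both sides of 0.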

How the data were processed

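Gene counts of 4 heart libraries were used. The authors quality filtered the reads, aligned them with TopHat2 to mm10 and counted those on known genes with Bioconductor packages, and the deposited values are raw counts per Entrez gene without normalization. Gene models, their version and strand use are not given in the sources used here. Of 24454 gene identifiers, 24374 matched a RefSeq symbol.

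Genes were kept by the default rule of filterByExpr (minimum count 10, total 15), and 14266 were tested with edgeR 4.0.16 in R 4.3.3 (TMM factors, quasi-likelihood F test, no covariate, as the study's methods name edgeR). p-values were adjusted by Benjamini-Hochberg over all tested genes, with a threshold of 0.05. The fitted biological coefficient of variation was 8.78%. The scripts were tested on simulated data. Normalized counts are counts divided by the effective library size (total times TMM factor) and multiplied by the mean effective size. Levels per length used merged exons of GENCODE M21 transcripts (GRCm38), and 3′UTRs were those of protein-coding transcripts.

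Libraries were grouped by their labels. Total counts were 12385863 and 8096870 in Ctrl and 12440553 and 14359838 in miR-128OE, and replicates differed by more than counting noise (chi-square per degree of freedom 11.69 in Ctrl and 5.55 in miR-128OE). The members and lists were chosen with earlier results of these data known. The text names the 10 members and, in each pathway list, the 4 genes with the smallest p-values, those not tested and the sex and transgene checks. Other called genes listed beside a count were named after their values were seen. One gene of the E2F target list is not reported here and was left out of its counts, for a reason unrelated to its values. Alternatives were other scalings (DESeq2 size factors, upper quartile, total counts), no filter, the likelihood ratio and exact tests, DESeq2 1.42.0, autosomal genes alone, an offset for GC content and length, and leaving out each library.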

Additional observations from a re-analysis of the deposited data

How the results depend on the processing

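The p-values rest on 2 libraries a group, sex coincided with condition, and leaving out a library leaves 1 sample whose spread is assumed to be that of the other group. No paired analysis was possible because the labels give no replicate number shared between groups. Over all genes, 2143 were lower and 2347 higher; scaling by total counts gave 2948 and 1611 and shifted the median log2 fold change to -0.11, DESeq2 gave 1317 and 1697, and leaving out WH9 or WH10 gave 667 or 1020 lower and 897 or 1265 higher. The cause of the changes below was not tested.

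With 1 library left out, lower calls ranged from 0 to 5 among the 10 members, 0 to 3 of the mitotic genes, 0 to 1 of the E2F and pocket proteins, 2 to 8 of the E2F targets, 1 to 3 of the turnover genes, 1 to 3 of the CDK-activating and CDK-restraining kinases and 2 to 7 of the other cyclins and CDKs. Higher calls ranged from 0 to 1 among members, mitotic genes, turnover genes and CDK-activating and CDK-restraining kinases, 0 to 2 among CDK inhibitors and among E2F and pocket proteins, and 1 to 7 among other cyclins and CDKs. The Cdk6 share differed by -5.00 to -2.46 percentage points, the Ccnd1 share by -8.37 to -5.21 and the Ccne2 share by -25.6 to -15.8.

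DESeq2 called 3 members, 1 mitotic gene, 1 CDK-activating or CDK-restraining kinase and 0 E2F and pocket proteins lower, and 0 of the latter higher. The GC and length offset gave 1 mitotic gene lower, and 1 member (Ccnd3), 1 CDK-activating or CDK-restraining kinase and 2 turnover genes higher. With no filter, 1 member (Ccnd3), 2 E2F and pocket proteins and 2 turnover genes were higher. Turnover genes also had 2 higher calls with DESeq2 size factors, the likelihood ratio test, the exact test and autosomal genes alone. Scaling by total counts gave 3 E2F and pocket proteins lower and 3 other cyclins and CDKs higher. Signs reversed for Ccnd2 with total counts (-0.016) and for Cdk4 with upper-quartile factors (-0.0094), total counts (-0.063) and without WH8 (with 1 library left out, -0.076 to 0.17), and in none of these did the gene pass the test. On counts without length the Cdk6 share differed by -6.90 percentage points. With the longest transcript as length, 3 members changed rank. Members with a seed match numbered 2 over all annotated 3′UTRs and 4 with 6-base matches.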
